A study of Mus musculus with 4 samples.

Results

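Anti-Müllerian hormone (Amh), the inhibin and activin subunits, and the receptors that bind them were followed in single cells of XY mouse gonads and of gonadal somatic cells made from embryonic stem cells (ESCs). The set comprised 10 of the 31053 genes in the feature table, chosen by symbol: the ligand genes Amh, Inha, Inhba, and Inhbb, the type II receptor genes Amhr2, Acvr2a, and Acvr2b, and the type I receptor genes Acvr1, Acvr1b, and Bmpr1a. All 10 genes held unique molecular identifiers (UMIs, which count individual transcript molecules) in each of the 4 libraries. Levels are given as CPM (UMIs of a gene per 1000000 UMIs of a group of cells) and as the share of cells with at least 1 UMI.

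Amh is the Sertoli cell hormone that causes the Müllerian ducts of male embryos to regress. It acts through its own type II receptor, Amhr2, together with type I receptors of the bone morphogenetic protein (BMP) branch, to which Bmpr1a and Acvr1 belong. Inhibins are dimers of the alpha subunit, encoded by Inha, with a beta subunit, encoded by Inhba or Inhbb, whereas activins are dimers of beta subunits alone. Activins signal through the type II receptors Acvr2a and Acvr2b and the type I receptor Acvr1b, and inhibins compete with them for the type II receptors. In the fetal testis, Amh, Inha, and Inhbb are known as Sertoli cell genes, and Inhba is known in the interstitium.

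The in vivo libraries were made from XY gonads of strain ICR at the embryonic stages E10.5, E11.5, and E12.5. The E10.5 dissection included dorsal mesenchyme around the gonads, and both later dissections left the mesonephros out. The titles label these gonads XY, whereas the extraction text names female tissue. The Y-linked genes Ddx3y, Eif2s3y, Kdm5d, and Uty were detected in 55.7% to 80.5% of the cells of each in vivo library, and Xist, which is expressed from the inactive X chromosome, in 0.0521% to 1.05%. The ESC-derived library was made at day 6 (D6) of aggregate culture from 1 XY ESC line, N271S9C, which the labels describe as C57BL/6J with the transgenes Nr5a1-hCD27a (Nr5a1-hCD271 in the methods, a surface tag expressed under Nr5a1 control) and Sox9-2A-CGFP (a fluorescent protein joined to the end of Sox9). The methods give a cross of C57BL/6J with another strain for this line. D6 cells had been exposed to FGF2 and to activin A itself at 20 ng/ml for 42 hours at the epiblast-like stage, then to CHIR99021, EGF, retinoic acid, Sonic hedgehog, PD0325901, and 1 ng/ml BMP4, and lastly to 20 ng/ml BMP4, FGF9 at 2 ng/ml, and the Wnt pathway inhibitor IWR1 at 20 µM, before Nr5a1-positive cells were enriched with magnetic beads. Thus, the final medium of D6 contained a ligand of the BMP receptors described here. Each condition is 1 library, so no test between conditions is possible, and all intervals are exact 95% intervals (Poisson for CPM, Clopper-Pearson for shares) that cover counting error only. The reagent kit was of version 2 for the gonads but of version 3 for D6, so kit, strain, culture, and sorting cannot be told apart between D6 and the gonads.

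Between 2101 and 3837 cells per library were retained, and the median depth was lowest at D6, with 4607 UMIs per cell, and between 8167 and 11926 UMIs in vivo. In vivo libraries shared 7 to 15 cell barcodes with each other and 0 with D6. Cells were gated by at least 1 UMI of Sox9 (Sertoli cells in the gonad, but also cartilage and other tissues), Pdgfra (interstitial cells), Upk3b (surface epithelium), or Cyp11a1 (steroid synthesis), and a cell could fall into several gates. From E10.5 to D6, the Sox9 gate held 786, 768, 905, and 292 cells. Of these, 22, 37, 20, and 24 also held Pax8, which in the paper marks supporting-like cells, a gonadal lineage that also expresses Sox9. The 9 Sertoli markers summed to 28.9 CPM in Sox9-positive cells of E10.5, with Dhh and Hsd17b3 at 0, against 2369 CPM at E11.5, 5596 CPM at E12.5, and 613 CPM at D6. Sox9-positive cells of E10.5 thus lacked the defining Sertoli markers, and sclerotome markers were at 225 CPM in them. At D6, interstitial markers were at 1642 CPM in Sox9-positive cells, above the 325 CPM of E12.5. Cells with both Sox9 and Nr5a1, a transcription factor of the gonadal lineages, were therefore examined as well. They numbered 13, 459, 532, and 104, and their Sertoli markers were at 3292 CPM at E11.5, 7133 CPM at E12.5, and 1356 CPM at D6. Nr5a1 is itself 1 of the 9 Sertoli markers, so part of these sums was fixed by the gate. D6 cells had also been enriched on the Nr5a1 tag. The Cyp11a1 gate held 2, 103, 44, and 298 cells. At E11.5 and E12.5, 70.9% and 72.7% of these cells also held Sox9, their Sertoli markers reached 2469 and 5488 CPM, and their steroidogenic markers only 147 and 552 CPM. In the Cyp11a1-positive cells of D6, the steroidogenic markers were at 2094 CPM and 9.40% of cells held Sox9. Therefore, this gate was that of steroidogenic cells by its markers at D6, whereas at E11.5 and E12.5 its Sertoli markers exceeded its steroidogenic markers. At E12.5, germ cell markers were also present in it at 312 CPM.

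Summed over all cells, Amh, Inha, Inhbb, and Amhr2 were near or below 5 CPM at E10.5 and were higher in each of the other libraries. In such sums, fewer cells of a type and less RNA per cell cannot be told apart. Nr5a1 was found in 1.88% of the E10.5 cells and in 34.7%, 31.9%, and 29.1% of the cells of the later libraries. Detection of Nr5a1 was thus also higher at E11.5 than at E10.5, and the part of cell composition was not tested. From E10.5 to E11.5, 4 of the 7 members that met the filter (a mean of at least 10 CPM over both groups) were past 2-fold higher, and 1 was past 2-fold lower, when ratios were taken on the log2(CPM + 10) scale. Among all genes tested in that comparison, 5.18% were past 2-fold higher and 2.76% lower. The ratio of CPM was 124 for Amh (interval 56.8 to 340, from 6 and 565 UMIs), 104 for Inhbb (56.1 to 217), 31.8 for Inha (24.0 to 43.1), and 23.7 for Amhr2 (20.2 to 28.0). Acvr2b was the member that was lower, with a CPM ratio of 0.351 (0.326 to 0.378). From E11.5 to E12.5, Amh alone of the 7 members tested was past the fold over all cells, where 0.592% of genes were higher and 0.491% lower. Inhba, which was below the filter, was at 1.08 on the log2(CPM + 10) scale.

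**Figure D1:**
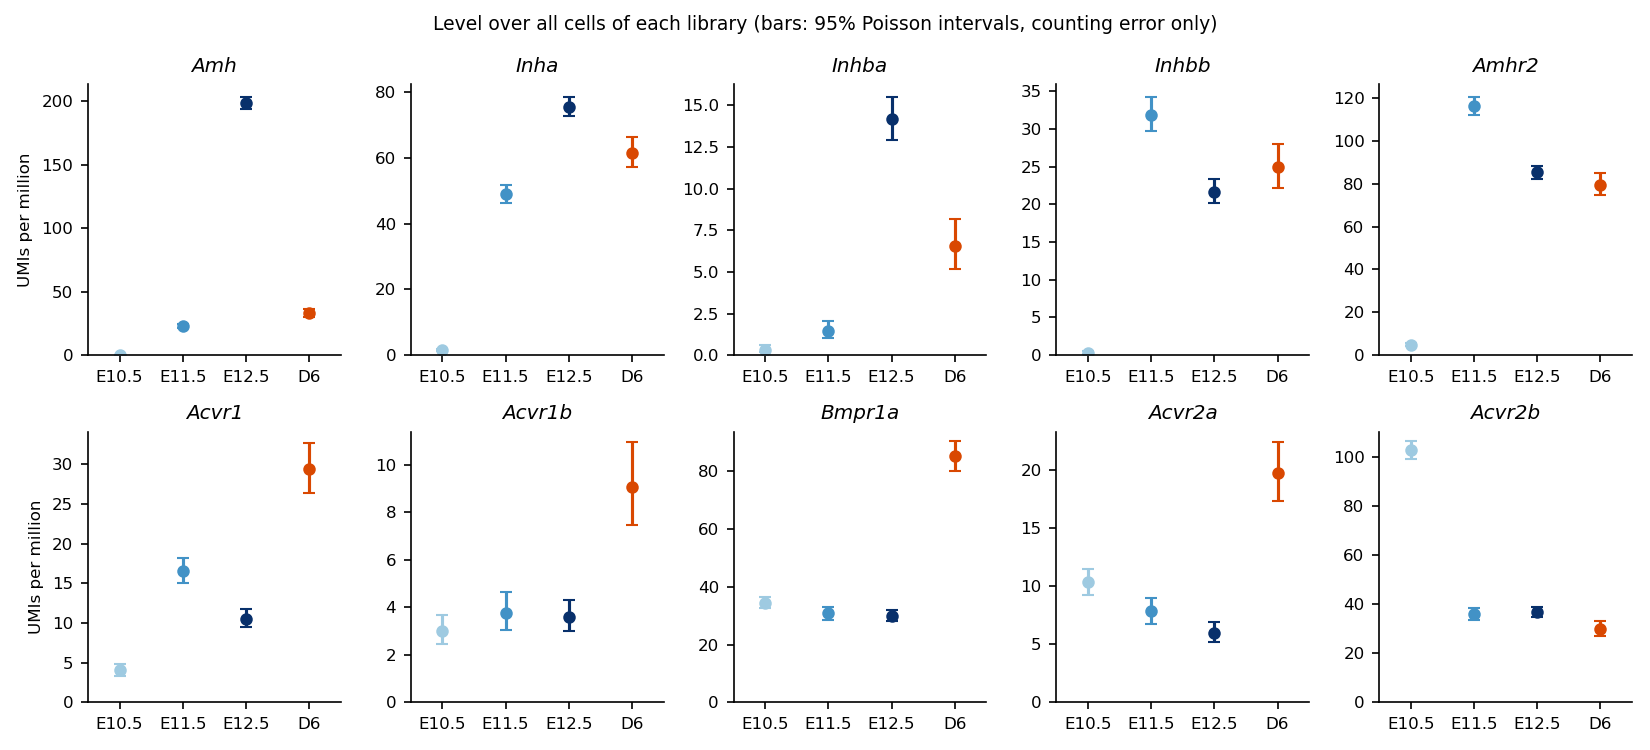
Level of each of the 10 genes over all retained cells of a library, in CPM, with exact Poisson 95% intervals, 1 panel per gene. Amh was at 0.185 CPM at E10.5, 198 CPM at E12.5, and 33.3 CPM at D6, Acvr2b was highest at E10.5 with 103, and Bmpr1a was highest at D6 with 85.0.

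Amh (chr10:80805243-80807648, plus strand, GRCm38) was almost absent at E10.5, with 6 UMIs in 3837 cells. Its level was 0.185 CPM at E10.5 (0.0677 to 0.402), 22.9 CPM at E11.5 (21.1 to 24.9), 198 CPM at E12.5 (194 to 203), and 33.3 CPM at D6 (30.1 to 36.7), and it was detected in 0.156%, 10.4%, 23.2%, and 3.59% of cells. The 4 intervals did not overlap, and by CPM the order of the libraries was E12.5, D6, E11.5, E10.5. By cell share the order of D6 and E11.5 was the opposite, with the depth of D6 cells the lowest of the 4 libraries. A second scaling (TMM, explained below) shifted D6 against E12.5 over all cells by -0.47 on the log2 scale. It was not computed between D6 and E11.5, so no order of D6 and E11.5 is read from either measure.

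Amh was concentrated in the Sox9 gate. In Sox9-positive cells its level was 0.271 CPM at E10.5, 54.2 CPM at E11.5 (49.7 to 58.9), 599 CPM at E12.5 (585 to 614), and 192 CPM at D6 (172 to 214). Of these cells 0.254%, 26.2%, 61.0%, and 18.2% held an Amh UMI, and after each cell was thinned to 2000 UMIs the shares were 0.127%, 8.73%, 45.2%, and 12.4%. The gates were set before thinning, so membership of a gate still depended on depth. Thus, E12.5 was highest and E10.5 lowest on each measure. In endothelial cells, which should lack the hormone, Amh was found in 1 of 70 cells at E11.5, 2 of 50 at E12.5, and 1 of 22 at D6, although their median depths of 17590, 17220.5, and 7415 UMIs exceeded those of the Sox9-positive cells (12951, 10790, and 5344). At E10.5, Amh was in 0 of 64 endothelial cells, which allows a share of cells with a UMI of up to 4.69% (3 cells of 64; the Clopper-Pearson bound is 5.60%), so the 0.254% in Sox9-positive cells of E10.5 could not be told from background at this depth. Sox9-positive cells were 36.6%, 32.7%, and 12.8% of all cells from E11.5 to D6 but held 537 of 565, 6379 of 6776, and 332 of 396 Amh UMIs. The CPM ratio of Sox9-positive to all other cells was 28.4 at E11.5 (19.5 to 43.2), 35.5 at E12.5 (32.1 to 39.4), and 30.6 at D6 (23.3 to 40.6), and these intervals overlapped.

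The Sox9-positive cells of D6 were divided by Nr5a1. In cells with both genes, Amh was at 74.8 CPM at E11.5 (68.2 to 81.9), 750 CPM at E12.5 (729 to 772), and 441 CPM at D6 (394 to 493). In Sox9-positive cells without an Nr5a1 UMI it was at 18.2, 368, and 16.8 CPM. At D6 only 4 of these 188 cells held Amh, against 49 of the 104 cells with both genes, at median depths of 4763 and 6538.5 UMIs. Among the cells with both genes, 122 of 532 had no Amh UMI at E12.5 and 37.0% had 10 or more. The numbers were 55 and 13 of 104 cells in the D6 library and 293 and 6 of 459 cells in that of E11.5. Median depths of these cells were 10946.5 UMIs at E12.5, 6538.5 at D6, and 13284 at E11.5. The counts per cell were not thinned and therefore also reflect depth. Over all cells of each library, an Amh-positive cell held on average 10.6 Amh UMIs at E12.5, up to 65, and 4.83 at D6, up to 26. These counts were not thinned either.

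In the Pdgfra gate of E12.5 and D6 and the Cyp11a1 gate of D6, Amh was higher in cells with Sox9 than in those without. At E12.5, Pdgfra-positive cells held 30.9 CPM, but those without Sox9 held 3.21 CPM and those with Sox9 109 CPM. At D6 the same values were 19.4, 5.61, and 89.8 CPM. Most Pdgfra-positive cells with Sox9 held no Amh UMI, as 47 of 259 held one at E12.5 and 7 of 85 at D6. In Cyp11a1-positive cells of D6, Amh was at 418 CPM in the 28 cells with Sox9, of which 14 held it. It was at 14.7 CPM in the 270 cells without Sox9. The Upk3b gate of D6 held a single Amh UMI.

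Inha (chr1:75507077-75510366, plus strand) encodes the alpha subunit that all inhibins share. Over all cells it was at 1.54 CPM at E10.5 (1.14 to 2.03), 48.9 CPM at E11.5 (46.2 to 51.7), 75.5 CPM at E12.5 (72.6 to 78.5), and 61.6 CPM at D6 (57.3 to 66.3). The 4 intervals did not overlap, with E12.5 the highest. In Sox9-positive cells the level was 2.04, 77.8, 208, and 69.5 CPM, so that D6 (57.6 to 83.0) overlapped with E11.5 (72.4 to 83.4) and was below E12.5 (199 to 216).

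In contrast to Amh, Inha at D6 lay mostly outside the Sox9 gate. The CPM ratio of Sox9-positive to other cells was 2.64 at E11.5 (2.34 to 2.98) and 13.2 at E12.5 (11.8 to 14.7) but 1.15 at D6 (0.939 to 1.40). At D6 it was the Cyp11a1 gate that stood out, with 200 CPM (181 to 220) and 59.7% of 298 cells positive, a CPM ratio to other cells of 5.91 (5.10 to 6.85). Cyp11a1-positive cells of E11.5 and E12.5 had 189 and 357 CPM, but most of these held Sox9. After cells with Sox9 were set aside, the Cyp11a1-positive cells of D6 still had 203 CPM of Inha in 162 of 270 cells, and the 30 such cells of E11.5 had 272 CPM. Cells in the Cyp11a1 gate alone held 47.3% of all Inha UMIs at D6, against 5.40% at E11.5 and 1.01% at E12.5, whereas Sox9-positive cells held 16.3% at D6, 64.0% at E11.5, and 85.6% at E12.5. The class of the Cyp11a1 gate alone held 13.4%, 0.640%, and 0.328% of the UMIs of all genes at D6, E11.5, and E12.5. Its shares of Inha therefore also follow its size. In cells with both Sox9 and Nr5a1, Inha was at 101 CPM at E11.5 (92.9 to 109), 274 CPM at E12.5 (261 to 287), and 157 CPM at D6 (129 to 189). Of endothelial cells, 7 of 70 were Inha-positive at E11.5, 3 of 50 at E12.5, and 0 of 22 at D6, and after thinning the shares in Cyp11a1-positive cells were 28.9%, 45.5%, and 30.2%.

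**Figure D2:**
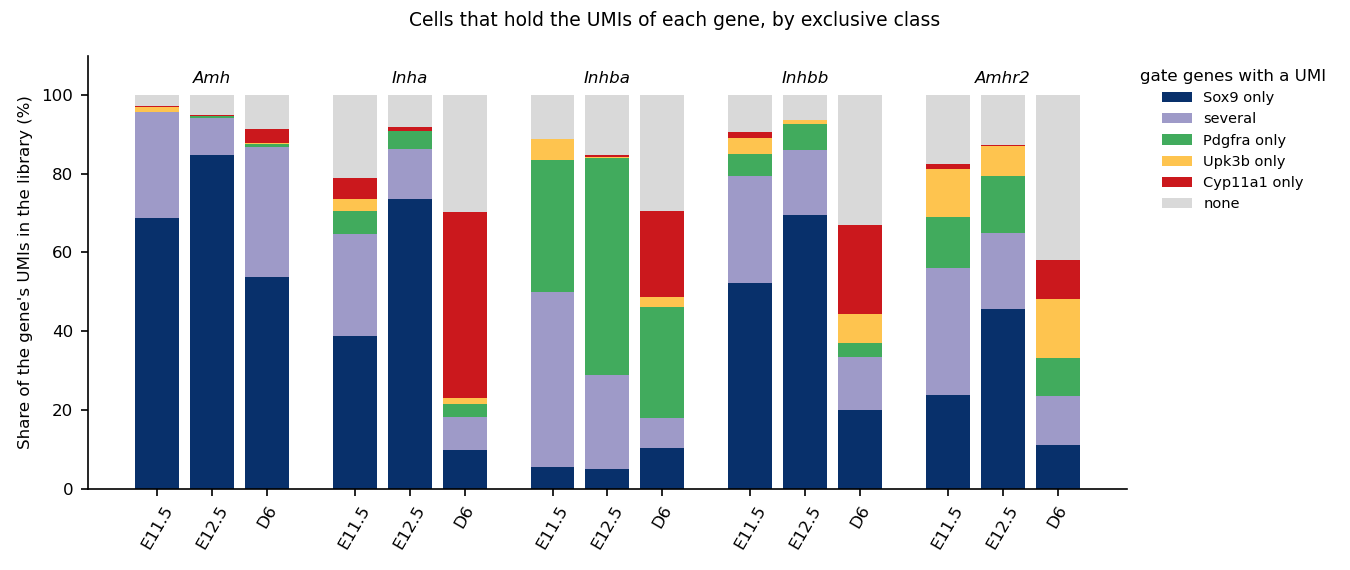
Share of the UMIs of a gene that came from cells of each exclusive class (1 gate only, several gates, or none), for E11.5, E12.5, and D6, as stacked bars in percent. At D6, 47.3% of Inha UMIs were in cells of the Cyp11a1 gate alone, a class that held 1.01% of them at E12.5. This class was 10.7% of cells at D6 and 0.326% at E12.5.

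Inhbb (chr1:119415465-119422248, minus strand) encodes the beta B subunit of inhibin B and activin B. Over all cells it was at 0.308 CPM at E10.5 (0.148 to 0.566), 31.9 CPM at E11.5 (29.7 to 34.2), 21.7 CPM at E12.5 (20.1 to 23.3), and 24.9 CPM at D6 (22.2 to 27.9). E11.5 was the highest, and the intervals of E12.5 and D6 overlapped. In the Sox9 gate, 0 UMIs were found in 786 cells of E10.5, and the later levels of 61.7 CPM at E11.5 (56.9 to 66.8), 58.7 CPM at E12.5 (54.2 to 63.5), and 53.2 CPM at D6 (42.9 to 65.3) overlapped. Thus, while Amh was 11.1-fold higher in Sox9-positive cells of E12.5 than of E11.5 (10.1 to 12.1), Inhbb had a CPM ratio of 0.951 (0.850 to 1.07). Amh and Inha, whose ratio was 2.67 (2.46 to 2.90), were the 2 of 7 members past 2-fold higher in that comparison, where 0.901% of genes were higher and 0.52% lower. In cells with Sox9 and Nr5a1, Inhbb was at 84.7, 74.5, and 118 CPM (93.8 to 146 at D6). The CPM ratio of Sox9-positive to other cells was 5.25 at E11.5 (4.43 to 6.25), 11.9 at E12.5 (9.75 to 14.6), and 2.64 at D6 (2.04 to 3.40), with E12.5 and E11.5 apart. At D6, 31.0% of the Inhbb UMIs were in Sox9-positive cells and 22.6% in cells of the Cyp11a1 gate alone, against 84.3% and 0.135% at E12.5. The Cyp11a1 gate alone held 13.4% of the UMIs of all genes at D6 and 0.328% at E12.5. Upk3b-positive cells of D6 held 21.4 CPM (14.1 to 31.1), and Pdgfra-positive cells 10.0 CPM (6.84 to 14.1).

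Inhba (chr13:16011851-16031621, plus strand) encodes the beta A subunit of inhibin A and activin A and was, at E12.5, the only ligand gene of the set with its highest level outside the Sox9 and Cyp11a1 gates. Its level was 0.338 CPM at E10.5 (0.169 to 0.605), 1.46 CPM at E11.5 (1.02 to 2.02), 14.2 CPM at E12.5 (12.9 to 15.5), and 6.55 CPM at D6 (5.18 to 8.18). In Pdgfra-positive cells it was at 0.480, 3.33, 30.0, and 8.75 CPM, and E12.5 (27.1 to 33.2) was above D6 (5.82 to 12.6). At E12.5, 380 of the 484 Inhba UMIs were in Pdgfra-positive cells, where 20.4% of 1103 cells were positive, and the CPM ratio to other cells was 6.21 (4.99 to 7.79). Presence of Sox9 made little difference within this gate, with 29.3 CPM in the Pdgfra-positive cells without Sox9 and 32.0 CPM in those with it. At D6, the Pdgfra, Cyp11a1, and Sox9 gates had 8.75, 10.0, and 8.10 CPM, and their intervals overlapped. Cells with both Sox9 and Nr5a1 held 1 Inhba UMI at D6. The gene lies over an antisense gene, Gm48444, at its 3′ part, and the library kit marks strand.

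**Figure D3:**
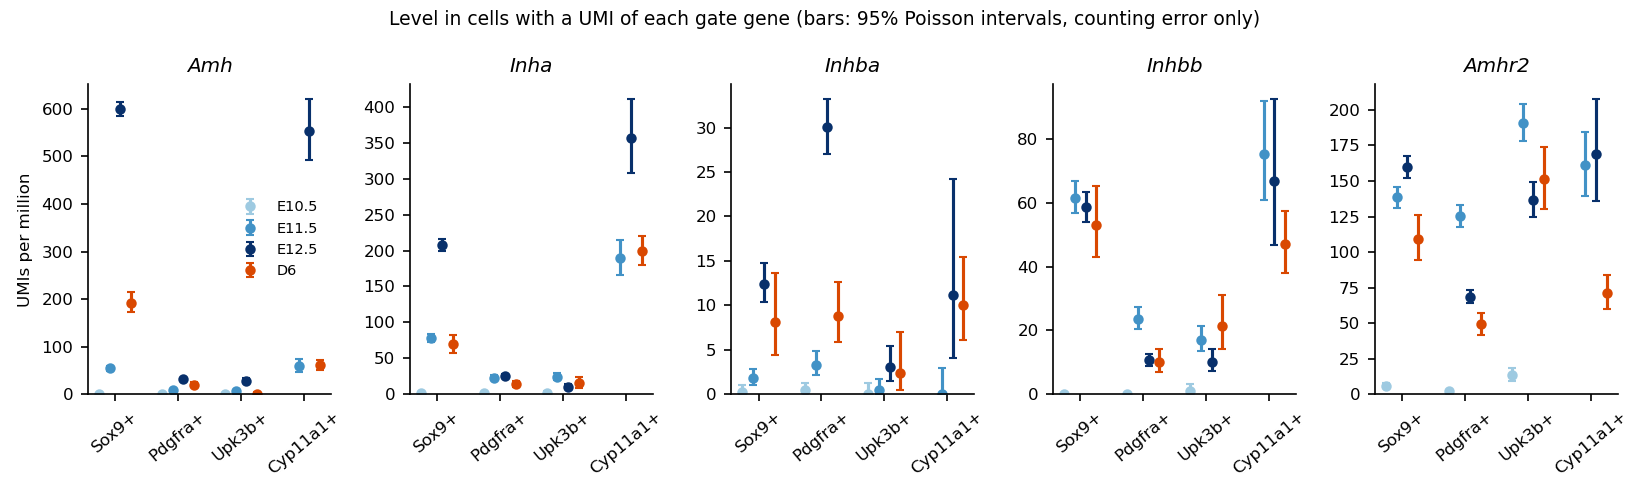
Level of Amh, Inha, Inhba, Inhbb, and Amhr2 in Sox9-, Pdgfra-, Upk3b-, and Cyp11a1-positive cells of each library, in CPM with exact Poisson 95% intervals, without groups of fewer than 20 cells. Amh and Inhbb were highest in the Sox9 or Cyp11a1 gate, Inhba at 30.0 in the Pdgfra gate of E12.5, and Amhr2 at 191 in the Upk3b gate of E11.5.

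Since inhibin needs both subunits, detection of Inha and the beta subunits was examined in the same cells. Both Inha and Inhbb, the subunits of inhibin B, were found in 29.0% of the cells with Sox9 and Nr5a1 at E11.5, in 42.5% of those at E12.5, and in 35.6% of those at D6. Inhbb without Inha was found in 27.5% of these cells at E11.5 but in 9.40% at E12.5 and 6.73% at D6. Inha without either beta subunit was found in 20.7%, 27.4%, and 18.3%. In the Cyp11a1 gate of D6, 14.4% of cells held Inha and Inhbb, and 41.9% held Inha without a beta subunit. Pdgfra-positive cells of E12.5 showed the opposite combination, with Inhba but no Inha in 18.0% of cells. Absence of a UMI at these depths does not show absence of the transcript.

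Amh-positive cells were then compared with Amh-negative cells within the population that held Sox9 and Nr5a1. At E12.5, 84.6% of 410 Amh-positive cells but 25.4% of 122 Amh-negative cells held Inha, and the shares for Inhbb were 61.7% and 18.9%. Inhba showed the reverse, with 1.71% and 24.6%. The median depth of both groups was near the same, 10969 and 10903.5 UMIs, and after thinning Inha was in 43.4% and 9.02% and Inhbb in 17.6% and 1.64%. The Amh-negative cells of E12.5 held the Sertoli genes Dhh and Ptgds in 8.20% and 13.1% of cells, against 90.2% and 95.9% of the Amh-positive cells, and Pdgfra in 59.0% against 9.27%. At D6, Inhbb was in 67.3% of 49 Amh-positive and 20.0% of 55 Amh-negative cells, Inha in 71.4% and 22 of 55, and Dhh in 32.7% and 0. After thinning at D6, these shares were 30.6% and 10.9% for Inhbb and 36.7% and 20.0% for Inha. At E11.5, when 166 cells were Amh-positive and 293 Amh-negative, Inhbb was in 74.1% and 46.4% and Inha in 62.7% and 42.3%. Thinned shares for Inha were 18.2% and 14.1%, whereas the E11.5 shares of Inhbb given here are at full depth. All of Amh, Inha, and Inhbb were held by 16.1% of this population in E11.5, by 40.6% in E12.5, and by 27.9% in D6.

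**Figure D4:**
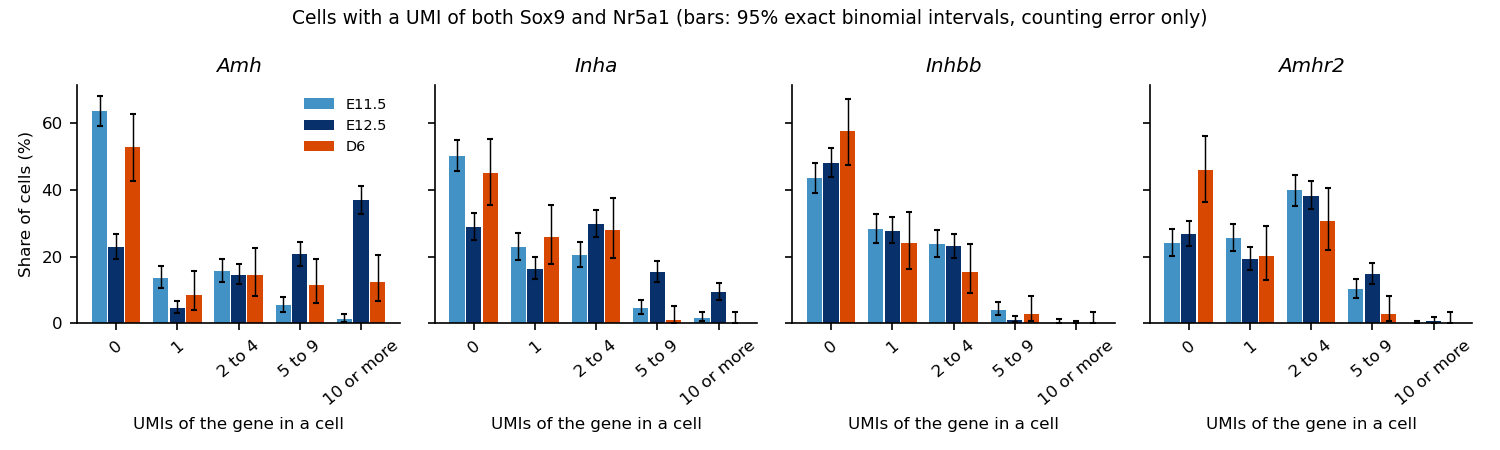
Share of cells with Sox9 and Nr5a1 that held 0, 1, or more UMIs per cell of Amh, Inha, Inhbb, and Amhr2, for E11.5, E12.5, and D6, in percent. For Amh, 10 or more UMIs were held by 37.0% of cells at E12.5, 13 of 104 cells at D6, and 6 of 459 cells at E11.5. Counts were not thinned, and the median depths of these cells were 10946.5 UMIs at E12.5, 6538.5 at D6, and 13284 at E11.5.

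Amhr2 (chr15:102445367-102454633, plus strand) encodes the type II receptor specific to Amh. Its upstream sequence is shown because, of the 9 promoters searched, it alone matched an Nr5a1 motif. The upstream sequence of Inhbb, a gene that moved with Amhr2 from E10.5 to E11.5, holds none and is shown beside it. Promoters of RefSeq (GRCm38.p6), from 250 bases before to 50 bases after the start, were searched on both strands for the motif of Nr5a1, spelled AAGGTCA, that of Sox proteins, spelled AACAAT, and that of Gata proteins, which starts with an A (AGATAA) in one form and with a T (TGATAA) in the other, and 9 of the 10 members had an entry. The window of Amhr2 held AAGGTCA at positions -231 to -225 from the start and TGATAA on the opposite strand at -199 to -194, both in capitals here, and the other 8 windows held none of these letters. Amh had no entry, so its promoter was not searched. Of all 32851 promoters, 4.72% held the Nr5a1 letters, 10.7% the Sox letters, and 18.6% a Gata form. The windows of Inha, Acvr1, and Bmpr1a lie inside their gene models. The 250 bases before the start are chr15:102445117-102445366 on the plus strand for Amhr2 and chr1:119422249-119422498 on the minus strand for Inhbb.
Amhr2: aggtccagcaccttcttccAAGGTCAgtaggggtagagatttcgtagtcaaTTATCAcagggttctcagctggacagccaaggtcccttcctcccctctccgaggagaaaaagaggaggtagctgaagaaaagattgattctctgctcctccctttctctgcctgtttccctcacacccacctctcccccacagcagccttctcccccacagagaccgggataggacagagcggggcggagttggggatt
Inhbb: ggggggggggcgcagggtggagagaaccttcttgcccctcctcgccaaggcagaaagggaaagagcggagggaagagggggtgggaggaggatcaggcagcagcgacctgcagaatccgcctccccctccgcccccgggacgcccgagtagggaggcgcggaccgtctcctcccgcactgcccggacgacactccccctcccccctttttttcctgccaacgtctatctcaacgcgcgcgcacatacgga
A match of letters is a description of the sequence and not of a bound site.

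Over all cells, Amhr2 was at 4.89 CPM at E10.5 (4.16 to 5.71), 116 CPM at E11.5 (112 to 120), 85.3 CPM at E12.5 (82.3 to 88.5), and 79.5 CPM at D6 (74.6 to 84.8). E11.5 was the highest, and the intervals of E12.5 and D6 overlapped. At E10.5, the 13 cells with Sox9 and Nr5a1 held 13 Amhr2 UMIs and 6 of them were positive, whereas none held Amh, Inha, or Inhbb.

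From E11.5 onward, the receptor was at 49.1 CPM or more in the Sox9, Pdgfra, and Upk3b gates. In Upk3b-positive cells it was at 13.3 CPM at E10.5 (9.42 to 18.3), 191 CPM at E11.5 (178 to 204), 137 CPM at E12.5 (125 to 149), and 151 CPM at D6 (130 to 174), and 84.7%, 72.0%, and 54.8% of these cells were positive from E11.5 to D6. In Sox9-positive cells it was at 5.83, 138, 159, and 109 CPM, and in Pdgfra-positive cells at 1.92, 125, 68.7, and 49.1 CPM. Thus, from E11.5 to E12.5 the level was lower in the Pdgfra gate but higher in the Sox9 gate (131 to 146 against 152 to 167). The CPM ratio of Sox9-positive to other cells was 1.37 at E11.5 (1.27 to 1.47), 3.08 at E12.5 (2.86 to 3.32), and 1.47 at D6 (1.25 to 1.72). Endothelial cells were positive in 9 of 70 at E11.5, 2 of 50 at E12.5, and 1 of 22 at D6, shares below those of each gate of the same library. Both Amh and Amhr2 were held by 27.2% of the cells with Sox9 and Nr5a1 in E11.5, 63.7% of those in E12.5, and 32.7% of those in D6. Amhr2 was found in as many Amh-positive as Amh-negative cells at E11.5 (75.3% and 76.1%), but in 82.7% of 410 and 50 of 122 at E12.5 and in 69.4% and 22 of 55 at D6. After thinning these pairs were 18.8% and 26.1%, 33.9% and 10.7%, and 30.6% and 20.0%.

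Among the type I receptors, Bmpr1a (chr14:34410734-34503341, minus strand), which Amh and BMPs use, was highest at D6. It was at 34.5 CPM at E10.5 (32.5 to 36.6), 30.8 CPM at E11.5 (28.6 to 33.1), 29.9 CPM at E12.5 (28.1 to 31.8), and 85.0 CPM at D6 (79.8 to 90.4). The intervals of E11.5 overlapped with those of both E10.5 and E12.5, and D6 was above all. In vivo, the level was 32.6 to 43.4 CPM in the Sox9, Pdgfra, and Upk3b gates of E10.5, 31.5 to 33.3 CPM in the 4 gates of E11.5, and 32.1 to 39.0 CPM in those of E12.5, with overlapping intervals at E11.5 and at E12.5. At D6 the gates differed, with 99.5 CPM in Sox9-positive cells (85.2 to 116) and 70.1 CPM in Cyp11a1-positive cells (59.0 to 82.7). Endothelial cells of the gonads were lower, at 2.99 CPM at E10.5, 17.9 CPM at E11.5, and 7.38 CPM at E12.5. Those of D6 were at 45.3 CPM, from 22 cells with 176585 UMIs of all genes, and no order against the gates is read there. Acvr1 (chr2:58388644-58567157, minus strand), the other type I receptor of the BMP branch, was at 4.03 CPM at E10.5 (3.37 to 4.78), 16.6 CPM at E11.5 (15.0 to 18.3), 10.6 CPM at E12.5 (9.50 to 11.7), and 29.4 CPM at D6 (26.4 to 32.6). No intervals overlapped, and D6 was again the highest. At E12.5 its CPM ratio of Pdgfra-positive to other cells was 2.95 (2.37 to 3.68), which did not reach 2-fold on the log2(CPM + 10) scale, and its level was 18.1 CPM in Pdgfra-positive and 9.68 CPM in Sox9-positive cells. Acvr1b (chr15:101174067-101213684, plus strand), the activin type I receptor, was low, at 3.01 CPM at E10.5, 3.78 CPM at E11.5, 3.60 CPM at E12.5, and 9.07 CPM at D6. The 3 in vivo intervals overlapped, and the lower bound of D6, 7.44 CPM, was above them.

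The activin type II receptors moved in different ways. Acvr2b (chr9:119402118-119434995, plus strand) was highest at E10.5, with 103 CPM (99.2 to 106), and lower at E11.5 with 36.1 CPM (33.7 to 38.5), E12.5 with 36.8 CPM (34.7 to 38.8), and D6 with 29.9 CPM (26.9 to 33.2). It was detected in 53.4% of cells at E10.5 and in 32.0%, 32.6%, and 13.3% in the other libraries, and after thinning in 18.2%, 8.14%, 6.91%, and 5.33%. The level at E10.5 was 111 CPM in the Sox9 gate, 113 CPM in the Pdgfra gate, and 106 CPM in the Upk3b gate, with overlapping intervals, and 22.5 CPM in endothelial cells. At D6, in contrast, the gates differed, with 41.2 CPM in Upk3b-positive (30.7 to 54.0) and 32.6 to 50.9 CPM as the interval in Cyp11a1-positive cells against 20.3 CPM in Sox9-positive (14.1 to 28.2) and 21.6 CPM in Pdgfra-positive cells (16.8 to 27.3). Acvr2a (chr2:48814109-48903269, plus strand) was at 10.3 CPM at E10.5, 7.84 CPM at E11.5 (6.77 to 9.02), 6.00 CPM at E12.5 (5.21 to 6.88), and 19.7 CPM at D6 (17.3 to 22.4). D6 was the highest, and E11.5 and E12.5 overlapped. Acvr1, Acvr2a, Acvr2b, and Bmpr1a each overlap a gene on the opposite strand in the feature table.

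Across the 4 gates, the receptors other than Amhr2 were not past 2-fold between a gate and the other cells of its library in any comparison in which they met the filter, and Amhr2 was past it once. In Sox9-positive against other cells, 0 of 2 members tested were past the fold at E10.5, where 0.34% of all genes were higher and 0.575% lower. At the same stage, 0 of 3 members were in the Pdgfra gate, where 0.0262% of genes were higher and 0.708% lower, and 0 of 3 in the Upk3b gate, where the shares were 0.824% and 0.837%. In the Sox9 gate of E11.5, 3 of 7 were higher (Amh, Inhbb, and Inha), against 3.95% of all genes, and 0 were lower, against 0.825%. At E12.5, 4 of 8 were higher, Amhr2 being the fourth, against 5.03%, and 0 were lower, against 1.61%. At D6, 2 of 8 were higher (Amh and Inhbb), against 0.817%, and 0 were lower, against 0.283%. Inhbb at D6 was at 1.07 on the log2 scale and at 0.94, under 2-fold, without limits on the cells. In Pdgfra-positive cells of E12.5, Inhba was higher, where 2.96% of genes were, and Amh and Inha were lower, where 3.73% were. At D6 the 2 members lower in the Pdgfra gate were Inha and Inhbb, where 0.8% of genes were lower and 0.0438% higher, and at E11.5 they were Amh and Inha, where 0.788% were lower and 0.229% higher. In Upk3b-positive cells, Amh and Inha were lower at E12.5 and at D6, where 3.13% and 2.95% of genes were, and Amh at E11.5, where 2.12% were, and no member was higher, against 1.99%, 2.04%, and 1.15% of genes. In Cyp11a1-positive cells, Amh, Inha, and Inhbb were higher at E11.5 and E12.5, where 3.46% and 3.83% of genes were, and Inha alone at D6, where 3.05% were, and no member was lower, against 3.26%, 2.89%, and 4.6% of genes.

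The D6 cells were compared with E12.5, the stage at which Amh was highest. The direction of the Amh difference was therefore already known from the levels above. No ratio of D6 to E11.5 was computed. The result depended on the scaling. In Sox9-positive cells, 1385 genes were past 2-fold higher and 443 lower with total UMIs as the scale, the median of all genes tested being at 0.21 on the log2 scale, whereas with TMM factors (a trimmed mean that discounts genes with extreme ratios), which shifted the values by -0.52, 598 were higher and 1212 lower. Amh was lower at D6 under both, with log2 ratios of -1.59 and -2.09 and -1.80 relative to the median of all genes. Inha was lower at -1.45, -1.93, and -1.66 in the same order. The CPM ratios were 0.321 for Amh (0.286 to 0.358) and 0.335 for Inha (0.276 to 0.402). Bmpr1a was higher, with a log2 ratio of 1.38 and a CPM ratio of 3.09 (2.56 to 3.72), 1.17 relative to the median, and was within 2-fold under TMM at 0.94. Of 9 members tested, 1 was higher and 2 lower with total UMIs, against 15.6% and 5% of all genes. Inhbb and Amhr2 were within 2-fold, at -0.12 and -0.51, and at -0.56 and -0.99 under TMM.

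In cells with both Sox9 and Nr5a1 the difference in Amh and Inha was smaller. Their log2 ratios were -0.75 and -0.77, with CPM ratios of 0.588 (0.523 to 0.659) and 0.573 (0.469 to 0.694), and were past 2-fold lower only under TMM, at -1.28 and -1.27. Inhbb was at 0.60 and, under TMM, at 0.11, and Amhr2 at -0.031 and -0.54. Bmpr1a remained higher at 1.37 and was at 0.92 under TMM, the single member of 8 tested that was past the fold, against 15.6% of genes higher and 4.79% lower. Sertoli markers, among them the gate gene Nr5a1, were at 1356 CPM at D6 and 7133 CPM at E12.5, and interstitial markers at 772 and 186 CPM. Their part in the differences was not tested.

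**Figure D5:**
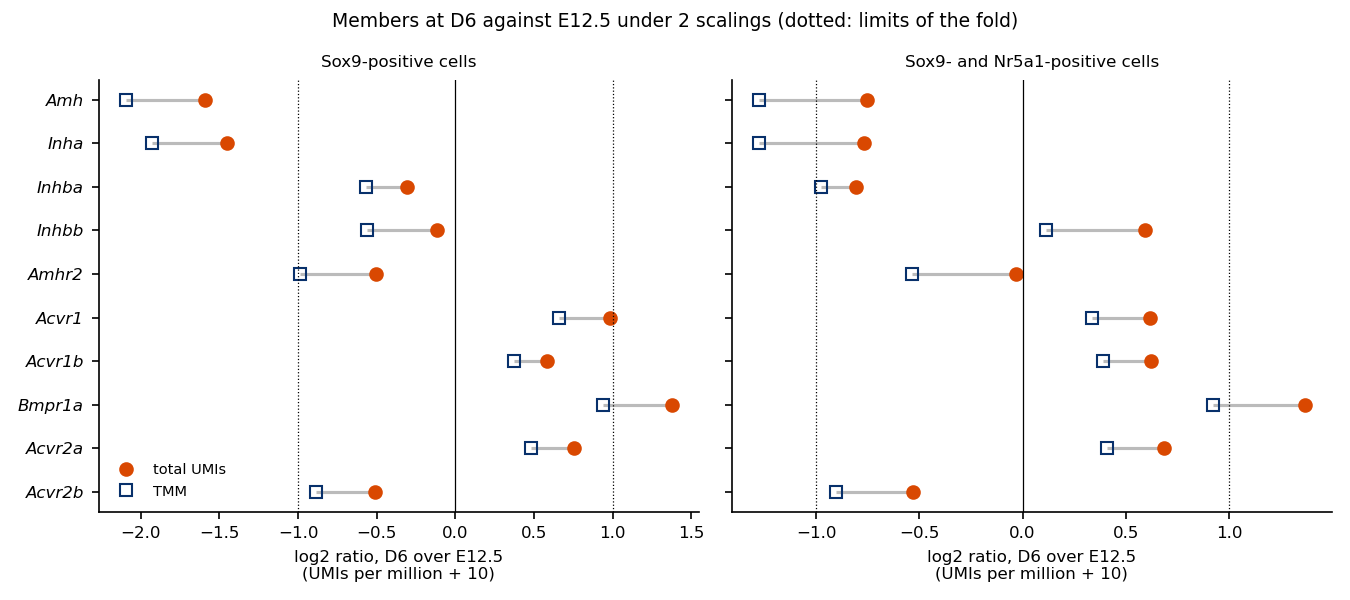
Log2 ratio of D6 to E12.5 on the log2(CPM + 10) scale for each member, with total UMIs and with TMM factors, in Sox9-positive cells and in cells with Sox9 and Nr5a1. Amh and Inha lay at -1.59 and -1.45 in Sox9-positive cells and at -0.75 and -0.77 in cells with both genes, and Bmpr1a at 1.38 and 1.37, with total UMIs.

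In the other gates of D6 against E12.5, Bmpr1a was past 2-fold higher in Pdgfra-positive cells at 1.26 and in Upk3b-positive cells at 1.24, where 15.1% and 12% of genes were higher, and within 2-fold in both under TMM at 0.88 and 0.91. Acvr1 was higher at 1.04 in Upk3b-positive cells and at 1.02 in Cyp11a1-positive cells, where 15.7% of genes were higher, and at 0.76 and 0.93 under TMM. Inhba was lower in Pdgfra-positive cells at -1.09, where 3.83% of genes were lower, and at -1.37 under TMM. In Cyp11a1-positive cells, Amh and Amhr2 were lower, at -3.00 and -1.14, where 6.67% of genes were lower, and at -3.15 and -1.29 under TMM. The Sox9-positive share of that gate differed between both libraries, as given above, and its part in these ratios was not tested. Amh was also lower in Upk3b-positive cells at -1.81, where 2.56% of genes were lower, with 1 UMI at D6. Over all cells, Amh was lower at -2.27 and Bmpr1a higher at 1.25, where 4.5% of genes were lower and 14.4% higher, and Inhbb was at 0.14 and, under TMM, at -0.19. Under TMM, Amh was at -2.67 over all cells, and Bmpr1a was within 2-fold at 0.86. Acvr1 and Acvr2a were within 2-fold over all cells at 0.94 and 0.89, and at 0.64 and 0.65 under TMM. Acvr1b was below the filter.

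Another 40 genes of the pathway were listed by role. In Sox9-positive against other cells of E12.5, 5 were past 2-fold higher, 2 lower, and 16 within, and 17 were below the filter, with a median log2 ratio of 0.25 against -0.02 for all genes, of which 5.03% were higher and 1.61% lower. The 5 were all transcription factors known at the Amh gene, namely Nr5a1 (1.88), Sox8 (1.73), Gata4 (1.33), Wt1 (1.25), and Nr0b1 (1.12). The 2 lower genes, at -1.97 and -2.49, were Lefty1 and Lefty2, which encode inhibitors of the activin-like ligand Nodal, and germ cells were among the other cells. None of the 6 Smad genes tested, which encode signal transducers, was past the fold. At D6, 0 of the 23 genes tested were past the fold in either direction, against 0.817% of all genes higher and 0.283% lower, with a median of 0.17. Sox8 was below the filter there, with 2 UMIs in Sox9-positive cells, and Nr5a1 was at 0.15, after the sorting of D6 cells on Nr5a1. Between D6 and E12.5 in Sox9-positive cells, 13 of 24 were higher and 2 lower, against 15.6% and 5% of all genes, with a median of 1.04 against 0.21. Under TMM 9 were higher and 2 lower, against 598 and 1212 of 8779 genes, with a median of 0.64 against -0.19. All 5 response genes were among the 13. Id2, Id3, and Id1, which encode inhibitors of differentiation and are known to respond to BMP signals, were at 2.70, 2.57, and 1.90, and at 2.22, 2.07, and 1.43 under TMM. In the paper, Id1 and Id2 also mark the cluster it proposes as supporting-like cells. Pmepa1, a known feedback inhibitor of activin-type signals, was at 1.92 and under TMM at 1.52, and Skil, a repressor of Smad activity, at 1.01 and 0.54. Among signal transducers, Smad6, an inhibitor of the BMP branch, was at 1.83, Smad4, the shared partner, at 1.49, Smad5 at 1.30, and the inhibitor Smad7 at 1.22, of which Smad6 and Smad4 stayed past the fold under TMM at 1.56 and 1.08. Bmpr2, a type II receptor for BMPs, was at 1.62 and 1.18, Tgfbr3, which encodes the inhibin co-receptor betaglycan, at 1.36 and 1.05, and the ligand gene Gdf11 at 1.07 and 0.82. Of the factors known at the Amh gene, Zfpm2 was higher at 1.81 and 1.40, and Sox8 and Dmrt1 were lower at -1.73 and -1.40, and at -1.95 and -1.69 under TMM. Gata4, Wt1, Nr5a1, and Nr0b1 were within 2-fold under both. With total UMIs, all 5 response genes were also higher in Pdgfra-positive, Upk3b-positive, and all cells of D6. In Cyp11a1-positive cells 4 were higher and 1 within, so these genes did not set the Sox9 gate apart. Of the 40 pathway genes, 17 were below the filter in the Pdgfra gate, 18 in the Upk3b gate, 17 in the Cyp11a1 gate, and 15 over all cells. Among those tested, 14 were higher and 0 lower in the Pdgfra gate, and 10 and 0 in the Upk3b gate. The counts were 11 and 1 in the Cyp11a1 gate, and 14 and 3 over all cells. Of all genes tested, 12% to 15.7% were higher and 2.56% to 6.67% lower in these groups.

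Genes with the most similar pattern to the 4 ligand genes and Amhr2 were sought among 8509 genes, by the Pearson correlation of log2(CPM + 10) over 22 groups of at least 20 cells formed by library and exclusive gate. These groups share libraries and depth, and the correlations are given as a description. For Amh the 5 genes were 8030411F24Rik (r = 0.945), Ptgds (0.923), Col9a2 (0.921), Gstm6 (0.915), and Efhd2 (0.905), and for Inhbb they were Gm2a (0.963), Sgms1 (0.955), P2rx4 (0.953), Dag1 (0.950), and Kctd14 (0.939). For Inha, Akr1cl (0.949), Mcee (0.944), Tmprss13 (0.937), Clu (0.934), and Gpc4 (0.933) came closest. Amhr2 was most like Ifngr2 (0.956), Lgals7 (0.939), Rpp25 (0.928), Aqp5 (0.922), and Cd200 (0.918). Inhba was most like Adamts2 (0.835), Igfbp7 (0.824), Robo2 (0.823), Pltp (0.785), and Jak1 (0.776). No gene was among the 5 of more than 1 member. With the overlapping gates as groups, 2 of the 5 genes were the same for Amh, 3 for Amhr2, 1 for Inha, 3 for Inhba, and 1 for Inhbb. In that grouping Clu was among the 5 of both Amh (0.930) and Inha (0.976).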

How the data were processed

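Per the labels and the methods, the authors aligned reads to mm10 with Cell Ranger 3.0.2 and deposited a matrix of UMI counts per gene and cell barcode for each library, without normalization. The file headers name Cell Ranger 6.0.0. Following the methods, cells were kept within limits set per library on detected genes (over 1000 and under 4000 for E10.5, 500 and 5000 for E11.5, 2000 and 5000 for E12.5, 1000 and 4000 for D6) and on the mitochondrial share (under 10%, 20%, 8%, and 12%). The retained cells held 32508523, 24625441, 34173977, and 11906360 UMIs.

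Counts were summed over the cells of a group and divided by its total. Ratios were taken on log2(CPM + 10), in genes with a mean of at least 10 CPM over both groups, and 2-fold was the threshold. Intervals of CPM ratios are exact conditional binomial. Groups under 20 cells are given as counts. For thinned shares each cell was reduced to 2000 UMIs, and 6, 209, 0, and 16 shallower cells were left out at E10.5, E11.5, E12.5, and D6. Gates and Amh-positive cells were defined before thinning.

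Doublets were left in. Scrublet (scanpy 1.11.5), with an expected 0.8% per 1000 cells, was an alternative. Endothelial and germ cells were those with at least 2 genes of their lists. Ratios were checked in simulated Sox9-positive profiles of D6 and E12.5: of 200 changed genes among 8192, 100% had the right direction and 92% were past 2-fold. All changes were simulated at more than 2-fold, in genes above the filter and with counting noise only. Smaller changes and lower genes were not checked. The members and lists were chosen with earlier results of these data known. All members are named. Pathway genes are named if past the fold in Sox9-positive cells against others at E12.5 or D6 or between D6 and E12.5, and so are the 5 genes most correlated with a ligand gene or Amhr2. Dhh, Ptgds, and Pdgfra in the co-detection are outside this rule and were chosen after their values were seen. Positions are from GENCODE vM21 on GRCm38. Python 3.11.15, numpy 2.4.6, scipy 1.17.1, pandas 2.3.3, matplotlib 3.10.9, R 4.3.3, and edgeR 4.0.16 (TMM only) were used.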

Additional observations from a re-analysis of the deposited data

How the results depend on the processing

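No paired analysis was possible because each condition is 1 library, and no library could be left out. No log2 ratio of Amh, Inha, Inhbb, or Amhr2, the members for which alternatives were run, changed sign between Sox9-positive and other cells at E11.5, E12.5, or D6, and between D6 and E12.5 Inhbb did. Across all alternatives the log2 ratio of Sox9-positive to other cells for Amh lay within 1.00 and 4.25 in the E11.5 library. It lay within 3.28 and 5.07 in that of E12.5, and within 2.10 and 4.73 in that of D6.

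With a pseudocount of 1, the log2 ratios were 4.25, 1.37, and 2.30 for Amh, Inha, and Inhbb at E11.5. They were 5.07, 3.64, 3.33, and 1.60 for Amh, Inha, Inhbb, and Amhr2 at E12.5, and 4.73 for Amh at D6. With a pseudocount of 50 they were 1.00, 0.69, and 0.86 at E11.5, 3.28, 1.97, 0.98, and 1.04 (the same 4 genes) at E12.5, and 2.10 for Amh and 0.56 for Inhbb at D6, and between D6 and E12.5 -1.42 for Amh and -1.11 for Inha. It left 115, 171, 15, and 459 genes past 2-fold in these 4 comparisons, and a filter at 50 CPM left 163, 214, 42, and 812, against 376, 528, 101, and 1828. With the same cell limits in every library, Amhr2 was at 0.31 at E11.5, Amh, Inha, and Amhr2 at 4.27, 2.88, and 1.33 at E12.5, and Amh at -1.79 between D6 and E12.5. With gates of at least 2 UMIs, Inha, Inhbb, and Amhr2 were at 1.37, 2.01, and 0.30 at E11.5, Amh at 4.31 at E12.5, and Inha, Inhbb, and Amhr2 at 0.62, 1.74, and 0.87 at D6, and between D6 and E12.5 Amh was at -1.22 and Inhbb at 0.29. In cells of 1 gate only, Inhbb was at 2.02 at E11.5, Amh, Inha, Inhbb, and Amhr2 at 4.96, 3.49, 2.57, and 1.89 at E12.5, and Amh at -1.80 between D6 and E12.5. After thinning, the E11.5 log2 ratios of Inha and Amhr2 were 0.80 and 0.30. Inha was at 2.91 at E12.5, Amhr2 at 0.13 at D6, and Amhr2 at -0.92 between D6 and E12.5. With cells weighted equally, Inha, Inhbb, and Amhr2 were at 0.92, 1.46, and 0.25 at E11.5, Amhr2 at 1.34 at E12.5, and Amh at -1.79 between D6 and E12.5. With TMM, Amh, Inha, Inhbb, and Amhr2 were at -2.09, -1.93, -0.56, and -0.99 between D6 and E12.5, and in cells with Sox9 and Nr5a1, an alternative chosen after seeing the data, at -0.75, -0.77, 0.60, and -0.031. Inha at E11.5 was thus under 2-fold after thinning, with equal weights, and with a pseudocount of 50, with which Inhbb was under 2-fold in each library. Without the cell limits, Inhbb at D6 was at 0.94 against 1.07, under 2-fold, and no other call of these members changed. Removal of Scrublet doublets (1.76% to 3.52% of cells, and 3.32% to 6.55% of cells in several gates) changed none of these calls.

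Cell number and depth limit the ESC-derived values: 292 cells carried Sox9 at D6, and low receptor genes rested on few UMIs, such as 19 for Acvr1b in that gate. The cause of these shifts was not tested beyond the construction of each alternative.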
